A study of Mus musculus with 48 samples.

Results

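Glucocorticoid hormone action was followed through 7 genes: the receptor genes Nr3c1 and Nr3c2, the corticosteroid-converting enzymes Hsd11b1 and Hsd11b2, and the response genes Tsc22d3, Fkbp5 and Zbtb16. They were chosen by gene symbol among the 49585 gene rows of the deposited tables. All 7 were present and all 7 passed the filter on low values (FPKM, fragments scaled to transcript length and library depth, of at least 1 in at least 4 libraries), as did 14922 genes in all. Zbtb16 passed through 1 vehicle and 5 D-alanine libraries, so a higher level in D-alanine is partly built into its selection, whereas the other 6 genes reached 1 FPKM in all 48 libraries. The study measured kidney RNA from wild-type mice given either vehicle or D-alanine, the D enantiomer of alanine, to learn how D-alanine affects circadian rhythm. Kidneys were taken at circadian times CT0, CT4, CT8, CT12, CT16 and CT20, which gives 12 groups of 4 libraries from different mice. The experiment was run 2 times, and the 48 libraries lie in 2 tables of 24 with 2 libraries of each group; the tables were taken to be the runs. Neither the labels nor the design text give a strain, an age, a dose or a route.

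Glucocorticoids such as corticosterone rise and fall daily and enter cells freely, where they bind the receptor encoded by Nr3c1, held ready by heat shock protein chaperones. The bound receptor moves to the nucleus and switches on genes such as Tsc22d3, Fkbp5 and Zbtb16. In the distal nephron the product of Hsd11b2 inactivates glucocorticoids and so keeps the mineralocorticoid receptor, encoded by Nr3c2, for aldosterone, whereas the product of Hsd11b1 can regenerate active hormone.

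Tsc22d3 and Fkbp5 were the members whose RNA cycled with the curve common to both treatments, so the bases before their start sites are shown first. They are from RefSeq (build GRCm38.p6), and only bases covered by no annotated exon are printed. Start regions of 4 of the 7 members were taken, and those of the other members were not examined. Capitals mark the E-box CACGTG, the letters bound by the core clock activators, and the receptor half-site TGTTCT or its reverse AGAACA. Both strands were searched.
Fkbp5, chr17:28486150-28486399, minus strand: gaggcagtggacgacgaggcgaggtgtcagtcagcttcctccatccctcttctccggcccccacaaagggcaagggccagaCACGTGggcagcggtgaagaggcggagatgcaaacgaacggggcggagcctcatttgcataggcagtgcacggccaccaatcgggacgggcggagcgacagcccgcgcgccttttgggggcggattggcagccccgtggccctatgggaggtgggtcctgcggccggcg
Tsc22d3, most upstream start, chrX:140600660-140600772, minus strand: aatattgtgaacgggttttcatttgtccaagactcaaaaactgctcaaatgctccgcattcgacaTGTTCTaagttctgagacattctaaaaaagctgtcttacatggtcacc
Tsc22d3, middle start, chrX:140548572-140548821, minus strand: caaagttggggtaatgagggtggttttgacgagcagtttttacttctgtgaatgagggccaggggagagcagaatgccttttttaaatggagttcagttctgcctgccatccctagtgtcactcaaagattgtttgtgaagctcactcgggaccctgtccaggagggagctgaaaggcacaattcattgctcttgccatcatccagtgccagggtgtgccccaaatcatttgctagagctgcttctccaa
The Fkbp5 stretch held 1 E-box, which began 169 bases before the start, and no half-site. An E-box was present in 6.02% and a half-site in 16.1% of the 32851 RefSeq start regions over the same 250 bases. The most upstream Tsc22d3 stretch, 113 bases long, held 1 half-site that began 185 bases before its start, and 7.87% of all start regions held one in that window. The middle Tsc22d3 stretch, and the last, most downstream one that is not printed (chrX:140542669-140542845, 177 bases), held none of the letters searched. No full element (AGAACA and TGTTCT with 3 bases between them) and no D-box TTATGTAA was found in these stretches; 0.00913% and 0.819% of the 250-base regions held them. The deposited values sum all exons of a gene, so the starts in use are not known, and a match in letters is a description only.

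Depth was 7619664 to 14381207 fragments per library (median 11587768.5), recovered from the steps of the FPKM values. Transcripts of the mitochondrial genome took 28.9% to 47.0% of summed FPKM in the first table and 14.9% to 23.4% in the second. The mean share was lower in D-alanine than in vehicle, with overlapping ranges, at 37.4% ± 4.33 against 41.4% ± 3.38 in the first table and 17.0% ± 1.36 against 19.9% ± 1.95 in the second (SD, n = 12). One library, D-alanine CT0 replicate 2 (first table), stood apart. Its summed FPKM over 4 inner medulla markers was 630.02, against 7.87 to 298 in the other 47 libraries, over 6 principal cell markers 3163, against 163 to 1305, and over 6 endothelial markers 150.1, against 26.5 to 93.3. It was lowest of all for the proximal tubule S1 and S2 (1418, others 1594 to 3608) and distal convoluted tubule markers (71.2, others 72.3 to 164). Several results are given with and without this library. Proximal tubule markers, which mark the main tubule of the kidney cortex, were thus high in every library. Of 6 adrenal cortex markers, the corticosterone synthesis gene Cyp11b1 was at 0 in all 48 libraries, Cyp11b2 in 47, Cyp21a1 in 34, Cyp11a1 in 33, Mc2r in 21 and Star in none. Their summed FPKM was 0.195 to 1.56 in 47 libraries and 2.63 in D-alanine CT0 replicate 2; its part in the results was not tested. In whole-kidney RNA, fewer cells of a type and less RNA per cell cannot be told apart. P-values measure the spread between these libraries.

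Nr3c1 (chr18:39410545-39491301, GRCm38) was the more abundant receptor RNA. In vehicle kidneys, Nr3c1 stood at 8.66, 4.55, 7.57 and 6.26 at CT0 (FPKM), 7.18, 5.45, 6.16 and 6.23 at CT4, and 5.33, 6.19, 6.10 and 6.34 at CT8. Vehicle Nr3c1 then stood at 5.67, 4.64, 4.92 and 5.27 at CT12 (FPKM), 6.15, 5.90, 6.16 and 6.77 at CT16, and 6.72, 5.92, 6.91 and 7.48 at CT20. The 4 vehicle libraries of CT0 spanned the widest range and those of CT12 were low together. In D-alanine kidneys, Nr3c1 stood at 8.26, 12.04, 9.21 and 7.96 at CT0 (FPKM), 4.75, 4.82, 8.16 and 7.32 at CT4, and 8.87, 7.03, 8.04 and 7.78 at CT8. D-alanine Nr3c1 then stood at 5.01, 7.39, 5.72 and 6.68 at CT12 (FPKM), 5.81, 5.41, 7.54 and 5.58 at CT16, and 5.31, 7.20, 5.55 and 7.33 at CT20. D-alanine CT0 held the highest library, and at CT8 the D-alanine libraries all lay above the vehicle ones. By group mean Nr3c1 ran from 9.37 ± 1.86 FPKM (SD, n = 4) in D-alanine CT0 down to 5.13 ± 0.445 in vehicle CT12. The order from high to low was D-alanine CT0, D-alanine CT8, vehicle CT0, vehicle CT20, D-alanine CT20, D-alanine CT4, vehicle CT4, vehicle CT16, D-alanine CT12, D-alanine CT16, vehicle CT8, vehicle CT12. In 10 of the 11 steps of that order the neighbouring means were closer than the larger of their SDs. Fragment counts of 340 to 1151 per library stood behind these values.

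Nr3c2 (chr8:76899442-77245012) was the less abundant receptor RNA, with 70 to 218 fragments per library. Vehicle means were 1.68 ± 0.416 at CT0, 1.82 ± 0.0546 at CT4, 1.57 ± 0.255 at CT8, 1.77 ± 0.238 at CT12, 1.93 ± 0.211 at CT16 and 1.96 ± 0.224 at CT20 (FPKM ± SD, n = 4). D-alanine means were 2.16 ± 0.451 at CT0, 1.73 ± 0.280 at CT4, 1.90 ± 0.172 at CT8, 1.78 ± 0.508 at CT12, 1.72 ± 0.425 at CT16 and 1.56 ± 0.343 at CT20. Its extremes were 1.08 FPKM in vehicle CT0 replicate 4 and 2.74 in D-alanine CT0 replicate 1, and neighbouring group means were closer than their SD in all 11 steps. The order from high to low was D-alanine CT0, vehicle CT20, vehicle CT16, D-alanine CT8, vehicle CT4, D-alanine CT12, vehicle CT12, D-alanine CT4, D-alanine CT16, vehicle CT0, vehicle CT8, D-alanine CT20. Within each library, where FPKM already corrects for gene length, Nr3c1 exceeded Nr3c2: the median ratio was 3.48 in vehicle (2.23 to 5.78, n = 24) and 4.06 in D-alanine (2.42 to 5.33).

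**Figure D1:**
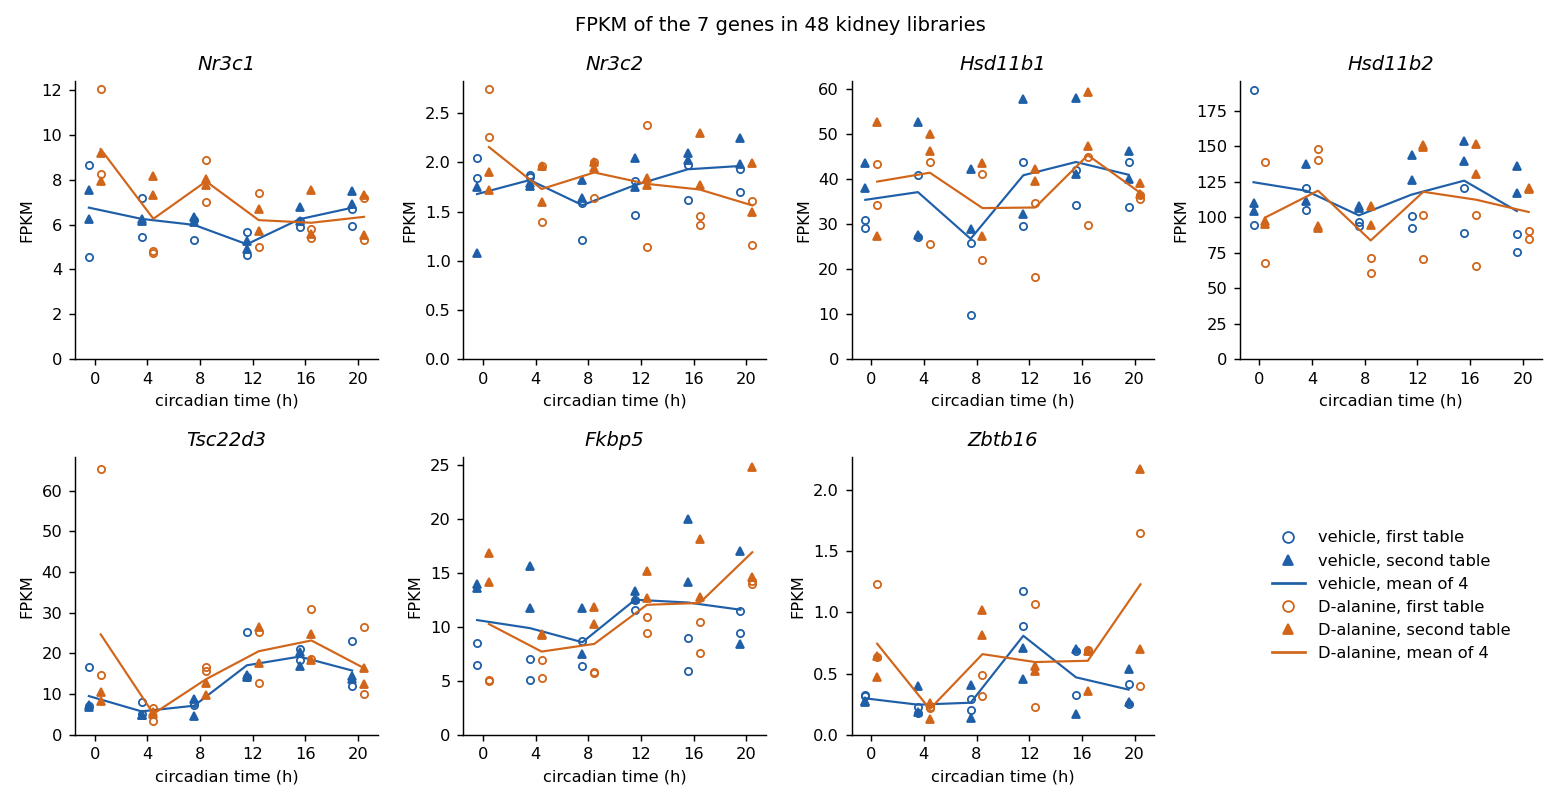
FPKM of each of the 7 genes (vertical axes, from 0) against circadian time in hours, in vehicle (blue) and D-alanine (orange); circles are libraries of the first table, triangles of the second, and lines join means of 4 libraries. Tsc22d3 lies between 3.43 and 8.00 FPKM in every CT4 library and between 17.0 and 31.0 in every CT16 library.

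Hsd11b1 (chr1:193221634-193264075), whose product restores active glucocorticoid, was an abundant RNA, above 91.1% of the genes tested by mean FPKM. Vehicle means were 35.4 ± 6.599 at CT0, 37.1 ± 12.2 at CT4, 26.7 ± 13.3 at CT8, 40.8 ± 12.9 at CT12, 43.8 ± 10.04 at CT16 and 40.9 ± 5.36 at CT20 (FPKM ± SD, n = 4). D-alanine means were 39.4 ± 10.97 at CT0, 41.4 ± 10.9 at CT4, 33.5 ± 10.5 at CT8, 33.7 ± 10.8 at CT12, 45.3 ± 12.1 at CT16 and 36.9 ± 1.49 at CT20. Spread within groups was wide: vehicle CT8 alone ran from 9.90 FPKM in replicate 1 to 42.3 in replicate 4. The order from high to low was D-alanine CT16, vehicle CT16, D-alanine CT4, vehicle CT20, vehicle CT12, D-alanine CT0, vehicle CT4, D-alanine CT20, vehicle CT0, D-alanine CT12, D-alanine CT8, vehicle CT8, and all 11 steps were smaller than the SD.

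Hsd11b2 (chr8:105518755-105523988), the inactivating enzyme of aldosterone-sensitive cells, was the most abundant member, above 96.9% of the genes tested. In vehicle kidneys, Hsd11b2 stood at 94.8, 189, 105 and 109.7 at CT0 (FPKM), 105, 120.4, 137 and 112 at CT4, and 94.1, 96.7, 108 and 107 at CT8. Vehicle values of Hsd11b2 were 101, 92.5, 127 and 144 at CT12 (FPKM), 120.2, 88.8, 139.9 and 154 at CT16, and 88.2, 75.8, 117 and 136 at CT20. Replicate 2 of vehicle CT0 stood far above the rest of its group, while the CT8 libraries were close together. In D-alanine kidneys, Hsd11b2 stood at 139, 67.5, 95.4 and 97.3 at CT0 (FPKM), 148, 140.4, 92.5 and 93.8 at CT4, and 60.6, 71.1, 108 and 94.5 at CT8. D-alanine values of Hsd11b2 were 101, 70.4, 149 and 151 at CT12 (FPKM), 65.4, 102, 131 and 151 at CT16, and 84.4, 90.3, 120.4 and 119.5 at CT20. Ranges of the treatments overlapped at each of the 6 times. By group mean the order from high to low was vehicle CT16, vehicle CT0, D-alanine CT4, vehicle CT4, D-alanine CT12, vehicle CT12, D-alanine CT16, vehicle CT20, D-alanine CT20, vehicle CT8, D-alanine CT0, D-alanine CT8; all 11 steps were smaller than the SD. The inactivating enzyme exceeded the restoring one in every library, with a median FPKM ratio of 2.91 in vehicle (2.02 to 9.51, n = 24) and 2.66 in D-alanine (1.48 to 5.81).

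Tsc22d3 (chrX:140539528-140600659) encodes GILZ, a leucine zipper protein induced by glucocorticoids, and was the member with the clearest daily swing. In vehicle kidneys, Tsc22d3 stood at 16.7, 7.03, 6.90 and 7.40 at CT0 (FPKM), 8.00, 5.21, 4.84 and 4.95 at CT4, and 7.25, 7.74, 4.71 and 8.88 at CT8. The later vehicle values of Tsc22d3 were 25.2, 14.2, 14.3 and 14.7 at CT12 (FPKM), 21.0, 18.5, 20.4 and 17.0 at CT16, and 23.1, 11.9, 13.8 and 14.4 at CT20. Every vehicle library of CT4 and CT8 lay below every one of CT12, CT16 and CT20. In D-alanine kidneys, Tsc22d3 stood at 14.7, 65.2, 8.32 and 10.4 at CT0 (FPKM), 3.43, 6.55, 5.09 and 5.58 at CT4, and 16.6, 15.7, 9.66 and 12.7 at CT8. The later D-alanine values of Tsc22d3 were 12.7, 25.4, 17.6 and 26.4 at CT12 (FPKM), 31.0, 18.6, 24.8 and 18.3 at CT16, and 10.1, 26.6, 12.5 and 16.3 at CT20. D-alanine CT4 was low in all 4 libraries, and D-alanine CT0 was pulled up by replicate 2. A curve with a period of 24 h, fitted to log2(FPKM + 1) with limma, gave the amplitude (the distance from mean to peak in log2 units) and the time of the peak. Values are called at a Benjamini-Hochberg adjusted p under 0.05 over all 14922 genes. Tsc22d3 rose and fell in vehicle, with an amplitude of 0.85 ± 0.16 (SE), a 3.23-fold difference between peak and trough and a peak at CT16.3 (adjusted p = 0.000729). In D-alanine the amplitude was 0.72 ± 0.16 and the peak CT16.0 (adjusted p = 0.00559). A curve common to both treatments gave 0.78 ± 0.11, 2.95-fold, with a peak at CT16.1 ± 0.5 h (adjusted p = 1.51e-06). The rhythms of the treatments did not pass limma's test of their difference (adjusted p = 1), and the D-alanine amplitude minus that of vehicle was -0.13.

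Without D-alanine CT0 replicate 2 the common amplitude of Tsc22d3 was 0.84 (adjusted p = 2.79e-10), and that in D-alanine 0.85 (adjusted p = 4.82e-06). With all libraries the common amplitude was larger and tighter in the second table, 0.88 ± 0.07 with a peak at CT15.6 (adjusted p = 3.46e-08), than in the first, 0.70 ± 0.20 at CT16.9 (adjusted p = 0.0543), where the call was lost, as it was there for vehicle (adjusted p = 0.293) and D-alanine (0.419) alone. The difference between tables did not pass its own test (adjusted p = 0.608). The order of group means from high to low was D-alanine CT0, D-alanine CT16, D-alanine CT12, vehicle CT16, vehicle CT12, D-alanine CT20, vehicle CT20, D-alanine CT8, vehicle CT0, vehicle CT8, vehicle CT4, D-alanine CT4. The steps between neighbours were smaller than the SD in 11 of 11 cases, and D-alanine CT0 stood first, at 24.7 ± 27.2 FPKM.

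Fkbp5 (chr17:28399095-28517524) encodes FKBP51, a cochaperone that lowers the hormone affinity of the receptor and is itself induced by it. In vehicle kidneys, Fkbp5 stood at 6.49, 8.51, 13.6 and 14.004 at CT0 (FPKM), 7.01, 5.11, 15.7 and 11.8 at CT4, and 8.68, 6.41, 7.52 and 11.7 at CT8. From CT12 on, vehicle Fkbp5 was 12.5, 11.6, 13.4 and 12.6 at CT12 (FPKM), 8.97, 5.95, 20.02 and 14.2 at CT16, and 11.5, 9.41, 17.1 and 8.47 at CT20. In the first table (replicates 1 and 2) most vehicle values lay below those of the second (replicates 3 and 4). In D-alanine kidneys, Fkbp5 stood at 5.01, 5.06, 16.9 and 14.2 at CT0 (FPKM), 6.94, 5.30, 9.27 and 9.37 at CT4, and 5.78, 5.79, 11.9 and 10.3 at CT8. From CT12 on, D-alanine Fkbp5 was 9.49, 10.9, 12.7 and 15.2 at CT12 (FPKM), 7.56, 10.4, 18.1 and 12.8 at CT16, and 14.3, 14.01, 14.7 and 24.8 at CT20. D-alanine CT20 held the highest library, replicate 4, and no D-alanine library of CT4 or CT8 reached the lowest of CT20. The rhythm was called in D-alanine, with an amplitude of 0.44 ± 0.09 and a peak at CT17.5 (adjusted p = 0.00436), but not in vehicle, at 0.20 ± 0.09 and CT16.6 (adjusted p = 0.321). The difference between those rhythms, tested directly in limma, did not pass (adjusted p = 1). The curve common to both treatments was called, at 0.32 ± 0.07, 1.56-fold from trough to peak, with a peak at CT17.2 ± 0.8 h (adjusted p = 0.00129). Within the first and second table it was called as well (adjusted p = 0.0314 and 0.0469), with peaks at CT16.1 and CT18.6. The D-alanine call was lost without a term for the table (adjusted p = 0.132) and in the first (0.112) and second table (0.120) alone. The order of group means from high to low was D-alanine CT20, vehicle CT12, vehicle CT16, D-alanine CT16, D-alanine CT12, vehicle CT20, vehicle CT0, D-alanine CT0, vehicle CT4, vehicle CT8, D-alanine CT8, D-alanine CT4, and 11 of 11 steps were smaller than the SD.

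Zbtb16 (chr9:48654297-48836222), a zinc finger repressor also called PLZF, was close to the limit of detection, with 7 to 143 fragments per library. In vehicle kidneys, Zbtb16 stood at 0.327, 0.318, 0.279 and 0.265 at CT0 (FPKM), 0.175, 0.223, 0.187 and 0.398 at CT4, and 0.295, 0.205, 0.141 and 0.407 at CT8. At the later times vehicle Zbtb16 was 1.18, 0.890, 0.456 and 0.711 at CT12 (FPKM), 0.681, 0.324, 0.701 and 0.171 at CT16, and 0.411, 0.254, 0.541 and 0.269 at CT20. The highest vehicle libraries were 2 of CT12, and most of CT4 and CT8 were low. In D-alanine kidneys, Zbtb16 stood at 0.632, 1.23, 0.469 and 0.641 at CT0 (FPKM), 0.2205, 0.227, 0.262 and 0.130 at CT4, and 0.313, 0.487, 0.812 and 1.02 at CT8. At the later times D-alanine Zbtb16 was 0.229, 1.07, 0.520 and 0.559 at CT12 (FPKM), 0.695, 0.684, 0.681 and 0.357 at CT16, and 0.398, 1.65, 0.701 and 2.17 at CT20. D-alanine CT4 was low in all 4 libraries, and D-alanine CT20 was split between 2 high and 2 lower libraries. The common rhythm had an amplitude of 0.17 ± 0.06 with a peak at CT16.5 and missed the threshold (adjusted p = 0.0668). Adjusted p was 0.0435 without D-alanine CT0 replicate 2, and leaving out any 1 of 4 other libraries also brought it under the threshold: D-alanine CT20 replicate 1 (0.0468), vehicle CT16 replicate 4 (0.0398), D-alanine CT8 replicate 4 (0.0451) and D-alanine CT16 replicate 4 (0.0397). The added 1 in log2(FPKM + 1) shrinks changes of so low a gene: with 0.1 in its place the amplitude was 0.45 (adjusted p = 0.0334), and with median centring it was 0.18 (adjusted p = 0.0451). The order from high to low was D-alanine CT20, vehicle CT12, D-alanine CT0, D-alanine CT8, D-alanine CT16, D-alanine CT12, vehicle CT16, vehicle CT20, vehicle CT0, vehicle CT8, vehicle CT4, D-alanine CT4; the steps were smaller than the SD in 11 of 11 cases.

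By count, the rhythm test in limma called 1 of the 7 members in vehicle, where 9.77% of all genes were called, and 2 in D-alanine, where 8.30% were. With the curve common to both treatments it called 2 of 7, against 26.5% of all genes, so the members were called about as often as other genes. The median amplitude over the 7 was 0.17 in that fit, against 0.10 over all genes. None of the 7 passed the test of a different rhythm between treatments, as 0% of all genes did, and none had an unadjusted p under 0.05 in it. Nr3c1 (0.13 ± 0.05, peak CT0.65, adjusted p = 0.0834) and Hsd11b1 (0.20 ± 0.08, peak CT19.1, adjusted p = 0.122) missed the threshold, and Nr3c2 and Hsd11b2 had amplitudes of 0.02 and 0.04 (adjusted p = 0.877 and 0.876). With the 6 times as separate levels in place of a curve, Nr3c1 (adjusted p = 0.0250) and Zbtb16 (0.0484) changed with time too. That test called 3053 of all 14922 genes. For Nr3c1 the curve was also called without vehicle CT0 replicate 2 (adjusted p = 0.0340), D-alanine CT4 replicate 1 (0.0363) or D-alanine CT4 replicate 2 (0.0369). Without D-alanine CT0 replicate 2 the Nr3c1 curve was weaker, at 0.10 (limma, adjusted p = 0.178).

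**Figure D2:**
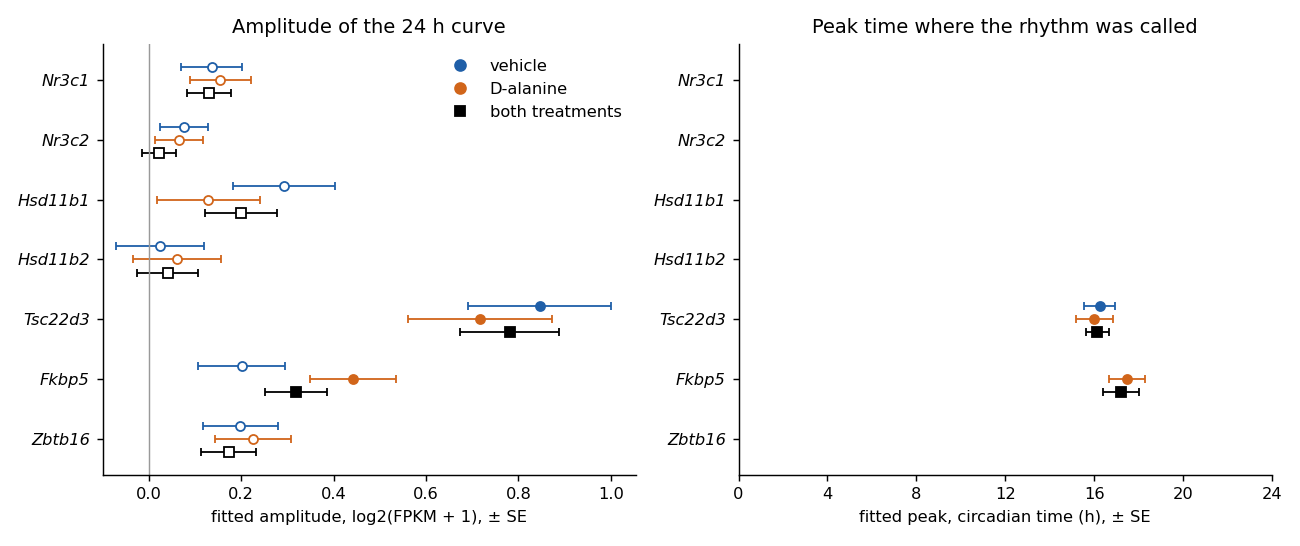
Left, fitted amplitude of the 24 h curve in log2(FPKM + 1) with its SE for each gene in vehicle, D-alanine and both treatments; filled symbols were called at an adjusted p under 0.05. Right, peak time in hours with its SE for the called rhythms, which lie between CT16.0 and CT17.5.

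No member differed between D-alanine and vehicle past the threshold. Averaged over the 6 times, 0 of 7 were called by limma, where 1.74% of all genes were called. Limma voom on recovered fragments called 0 of 7 members and 202 of all 14922 genes. In limma, 3 of 7 members and 3064 of all 14922 genes had an unadjusted p under 0.05. Tsc22d3 averaged 12.4 ± 6.24 FPKM under vehicle and 17.3 ± 12.7 under D-alanine (SD, n = 24), a log2 difference of 0.35 ± 0.14 (SE, adjusted p = 0.156), or 0.25 (adjusted p = 0.218) without D-alanine CT0 replicate 2. Nr3c1 stood at 6.19 ± 0.96 and 7.03 ± 1.70 FPKM, a difference of 0.14 ± 0.06 (adjusted p = 0.155), or 0.12 (adjusted p = 0.241) without that library. Zbtb16, whose choice leans to D-alanine as stated, stood at 0.409 ± 0.257 and 0.673 ± 0.479 FPKM (0.22 ± 0.07, adjusted p = 0.0940), and passed without D-alanine CT20 replicate 1 (adjusted p = 0.0313). Without D-alanine CT0 replicate 2 the Zbtb16 difference was 0.20 (adjusted p = 0.149). The mean was higher in D-alanine in 9 of 12 pairs of time and table for Tsc22d3 and Zbtb16 and in 8 of 12 for Nr3c1. It was higher in 7 for Fkbp5, 5 for Nr3c2, 5 for Hsd11b1 and 3 for Hsd11b2. In the first table these were 3 pairs of 6 for Tsc22d3, 3 for Nr3c1 and 5 for Zbtb16. In the second they were 6, 5 and 4. The same count over all genes was not made. Differences for the other 4 were -0.14 ± 0.09 for Hsd11b2 (95% interval -0.33 to 0.05), 0.05 ± 0.11 for Hsd11b1 (-0.16 to 0.27), 0.01 ± 0.09 for Fkbp5 (-0.17 to 0.19) and 0.00 ± 0.05 for Nr3c2 (-0.10 to 0.11). The median over the 7 was 0.05 and over all genes 0.06.

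The scale of the values bears on this comparison. Of the 259 genes called over all times, 237 were higher and 22 lower in D-alanine. After each library was centred on its median, 3 were higher and 20 lower. Without mitochondrial genes in the scaling, 9 were higher and 12 lower. That scaling used their share of recovered fragments, whereas the share given above, which differed between treatments, is of summed FPKM. Rescaled to TPM, in which every library has the same sum, and where the median of all genes moved to 0.11 and 2668 genes were called, Nr3c1 (0.21, adjusted p = 0.0394) and Zbtb16 (0.36, adjusted p = 0.0277) passed. The passing of Zbtb16 is not free of its selection, which leans to D-alanine as stated. With centring on the median the differences were 0.07 for Nr3c1, 0.28 for Tsc22d3 and 0.15 for Zbtb16 (adjusted p = 0.546, 0.401 and 0.426). Those of Fkbp5 (-0.06), Nr3c2 (-0.07) and Hsd11b1 (-0.02) were then below 0.

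**Figure D3:**
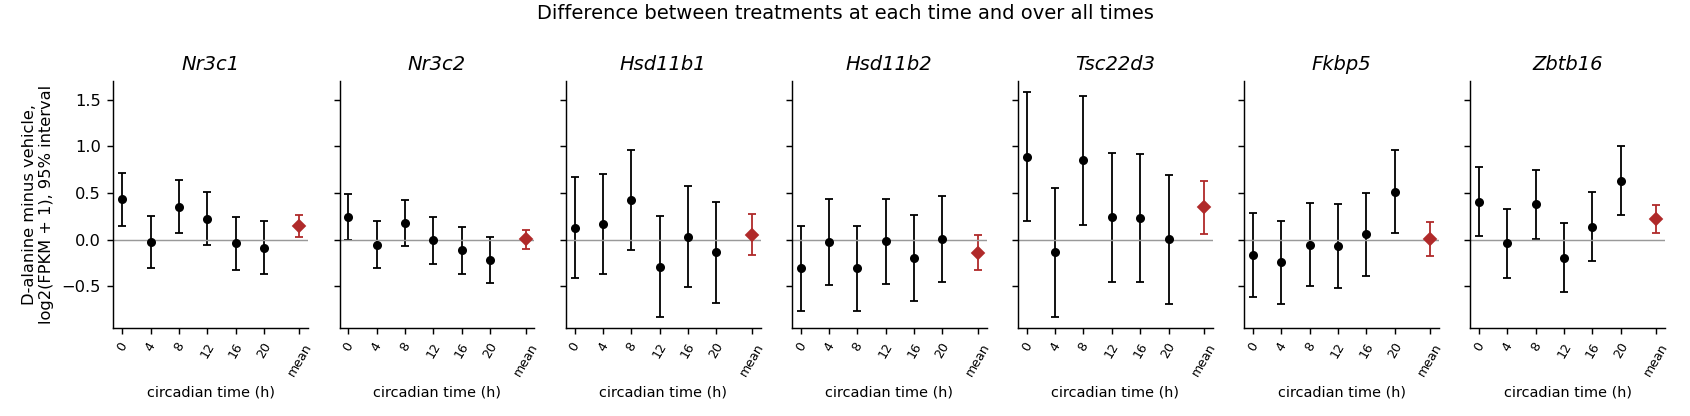
D-alanine minus vehicle in log2(FPKM + 1) with its 95% interval from the limma model, at each circadian time (black) and averaged over the times (red). The averages lie between -0.14 for Hsd11b2 and 0.35 for Tsc22d3, and none was called.

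At single times 0 of the 42 pairs of member and time were called by limma, and 0 by limma voom, which made 179 calls over all genes and times. Background shares were 1.14% of all genes at CT0 and 0% at each other time. Unadjusted p was under 0.05 for 3 members at CT0, 3 at CT8, 2 at CT20 and 0 at CT4, CT12 and CT16. Of all 14922 genes, 3281 had such a p at CT0, 2215 at CT8 and 384 at CT20. Nr3c1 at CT0 was closest, at 0.43 ± 0.14 (adjusted p = 0.0832), but 0.30 (adjusted p = 0.461) without D-alanine CT0 replicate 2. Tsc22d3 at CT0 had a difference of 0.89 ± 0.34 (adjusted p = 0.126), which was 0.31 (adjusted p = 0.696) without that library. Without vehicle CT0 replicate 1 both Nr3c1 (0.57, adjusted p = 0.0236) and Tsc22d3 (1.12, 0.0453) were called at CT0, and Nr3c1 was called without D-alanine CT0 replicate 4 (0.51, 0.0440). With TPM both were called as well (adjusted p = 0.0225 and 0.0447). Over all genes, the 170 calls at CT0 of 14922 genes became 1256 of 14876 without vehicle CT0 replicate 1. They became 741 of 14906 without D-alanine CT0 replicate 4 and 2612 of 14922 with TPM. Without D-alanine CT0 replicate 2 they became 0 of 14854. Whether these members were called at CT0, like genes at large, thus changed with the scaling and with single libraries. At CT8 Tsc22d3 differed by 0.85 ± 0.34 (adjusted p = 0.281), and its 4 D-alanine values lay above the 4 vehicle values. At CT20 the difference was 0.63 ± 0.18 for Zbtb16, whose choice leans to D-alanine as stated, and 0.52 ± 0.22 for Fkbp5 (adjusted p = 1 for each). No member passed the test of a treatment effect that varied with time (0% of all genes) or with the table (0% of all genes). For time, 2 of 7 members and 527 of all 14922 genes had an unadjusted p under 0.05. For the table, 0 of 7 members and 573 of all genes did.

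Hsd11b2 was the 1 member of 7 whose rhythm differed between the tables in limma, where 1.44% of all genes did. In the first table its mean was 123 ± 53.4 FPKM at CT0 and 128 ± 19.5 at CT4 and 80.6 ± 17.6 at CT8 (SD, n = 4, both treatments), and 84.6 to 94.1 at later times. In the second table it was 102 ± 6.602 at CT0, 109 ± 20.9 at CT4 and 104 ± 6.54 at CT8, and 143 ± 11.1 at CT12, 144 ± 10.8 at CT16 and 123 ± 8.50 at CT20. The first table was highest at CT0 and CT4 and the second at CT12 and CT16. The fitted peaks lay at CT1.86 ± 1.71 h in the first table (amplitude 0.23 ± 0.10, adjusted p = 0.266) and CT15.0 ± 0.6 h in the second (0.27 ± 0.04, adjusted p = 0.000356), and the difference had an adjusted p of 0.0397. It was 0.0206 without D-alanine CT0 replicate 2. The call was lost without vehicle CT0 replicate 2 or 3, CT4 replicate 2 or 4, CT12 replicate 2 or 4 or CT16 replicate 4, and without D-alanine CT0 replicate 1, 3 or 4, CT4 replicate 1, 2, 3 or 4, CT12 replicate 3 or 4 or CT16 replicate 1 or 4, each left out alone (adjusted p 0.0512 to 0.0709 in these 18 of 48 cases). It was also lost with all expressed genes tested (0.0734), with quantile normalization (0.0740), with centring on the median (0.143) and after mitochondrial genes were removed from the scaling (0.0733).

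Markers of principal cells, the collecting duct cells in which Hsd11b2 is known to act, differed in level between the tables at some times. Their summed FPKM averaged 1383 at CT0, a mean that includes the 3163 of D-alanine CT0 replicate 2, 460.0 at CT4, 453 at CT8, 531 at CT12, 830.0 at CT16 and 697 at CT20 in the first table. In the second it averaged 226 at CT0, 229 at CT4, 341 at CT8, 492 at CT12, 588 at CT16 and 324 at CT20. Among these markers Aqp2 reached 2870 FPKM and the next, Aqp3, 129, so Aqp2 made up most of the highest sums. In D-alanine CT0 replicate 2, which had the highest sum, Hsd11b2 was 67.5 FPKM. At CT12 the sums of the tables were close in FPKM, while Hsd11b2 averaged 91.2 FPKM in the first and 143 in the second. In the CT12 libraries, mitochondrial transcripts took 38.3% to 46.8% of summed FPKM in the first table. In the second they took 14.9% to 18.6%. FPKM levels of other genes, Hsd11b2 and the markers among them, are thus not on an equal scale in the tables. Of the 6 markers, none of them at 0 in any library, 1 had a rhythm that differed between tables: Scnn1b, a subunit of the epithelial sodium channel, (adjusted p = 0.0361). Fxyd4 did not pass (adjusted p = 0.0720). Their part in the Hsd11b2 result was not tested.

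**Figure D4:**
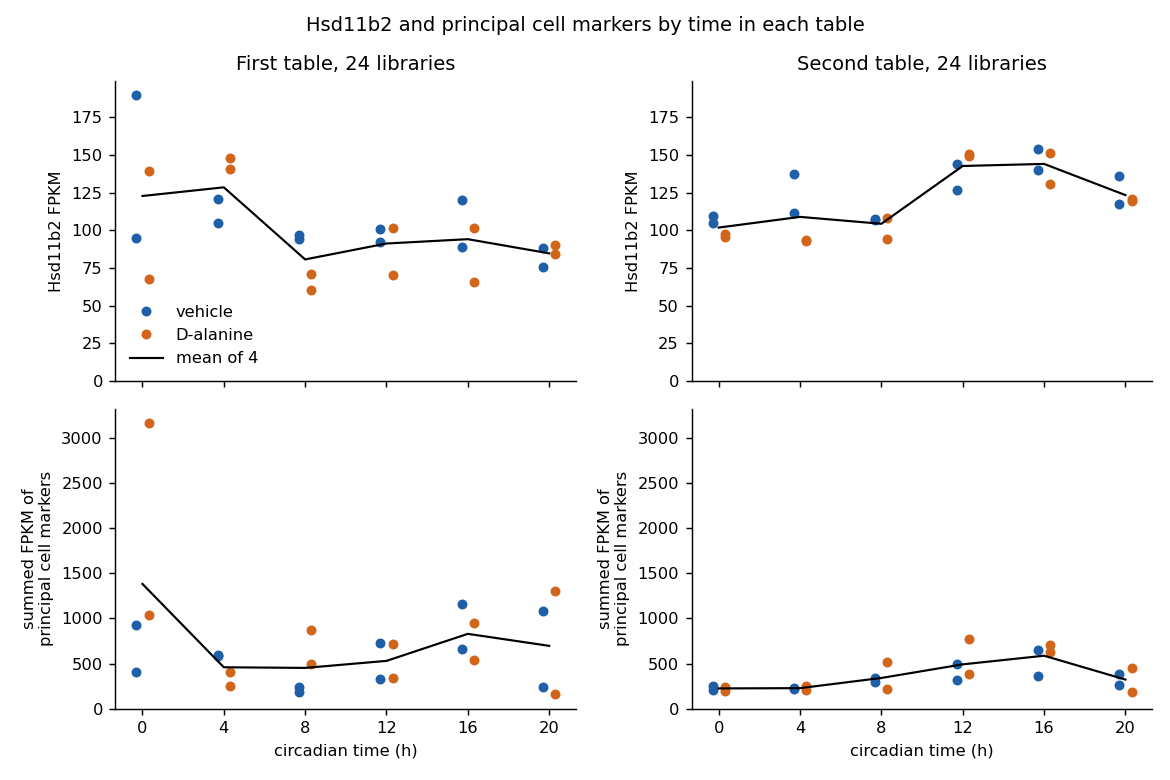
Hsd11b2 FPKM (top) and the summed FPKM of 6 principal cell markers (bottom) against circadian time in the first (left) and second table (right); points are libraries, coloured by treatment, and the line joins means of 4. In the second table Hsd11b2 rises from 104 FPKM at CT8 to 143 at CT12, where the first table stays near its low.

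Libraries of the same group, time and table also varied together. Across 48 libraries, after each pair of same-group libraries in a table was centred, Tsc22d3 followed the summed inner medulla markers (log2; Pearson r = 0.78, permutation p = 0.00026, adjusted p = 0.00182; Spearman rho = 0.81, permutation p = 0.00028). This set of 7 relations was added after the data were seen. The share of all genes that followed the sum as closely was not measured. The relations thus cannot be called particular to these members. Nr3c1 (r = 0.68, adjusted p = 0.00728; rho = 0.69), Zbtb16 (r = 0.58, adjusted p = 0.0241; rho = 0.55) and Hsd11b1 (r = 0.41, adjusted p = 0.0116; rho = 0.49) passed in permutation tests too. Fkbp5 had r = 0.05 (permutation p = 0.680), Hsd11b2 -0.40 (p = 0.0973) and Nr3c2 0.41 (p = 0.103). Without the 2 libraries farthest from the median r was 0.74 for Tsc22d3, 0.65 for Nr3c1, 0.43 for Zbtb16 and 0.48 for Hsd11b1, each with an adjusted permutation p under the threshold. Within the first table r was 0.86 for Tsc22d3 and 0.82 for Nr3c1 (exact permutation p = 0.000488 each, the smallest possible); within the second it was 0.51 (p = 0.153) and 0.22 (p = 0.377), where neither relation passed. Zbtb16 had r = 0.79 in the first table (exact permutation p = 0.0244, adjusted p = 0.0570) and 0.21 in the second (p = 0.370), and Hsd11b1 0.38 (p = 0.0459, adjusted p = 0.0803) and 0.48 (p = 0.0767). Inner medulla markers summed to 7.87 to 630.02 FPKM in D-alanine (median 38.4) and 9.82 to 298 in vehicle (median 22.0). Of the 4 markers, none differed between treatments, Slc14a2 was at 0 in 1 library and Slc6a12 in 2. Their highest values were 476 FPKM for Akr1b3, 102 for Slc14a2, 85.1 for Aqp4 and 10.1 for Slc6a12. Akr1b3 thus made up most of the highest sum. With that sum as a covariate in limma the common amplitude of Tsc22d3 was 0.67 (adjusted p = 2.55e-09) and of Fkbp5 0.35 (adjusted p = 0.000242). Nr3c1 was then called, at 0.15 (adjusted p = 0.00316), while calls of the common curve over all genes rose from 3947 to 5232. The treatment difference of Tsc22d3 became 0.23 (adjusted p = 0.137), that of Zbtb16 0.19 (0.123) and that of Nr3c1 0.10 (0.191).

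**Figure D5:**
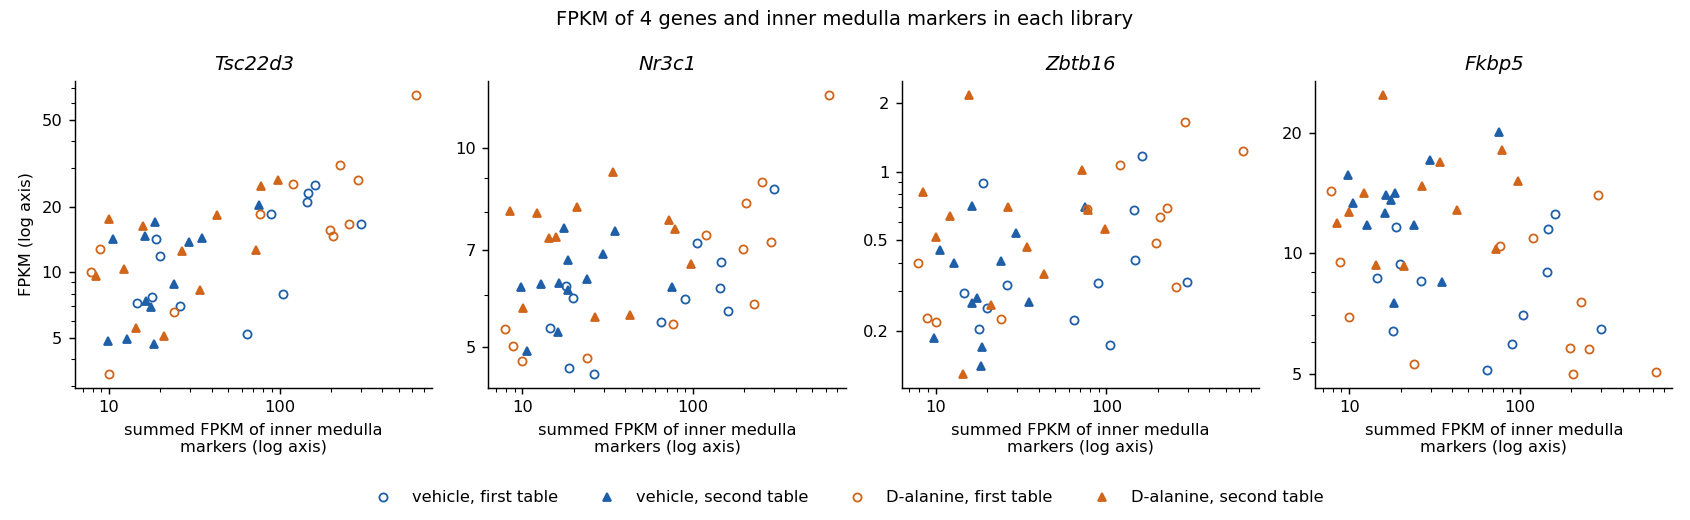
FPKM of 4 genes against the summed FPKM of 4 inner medulla markers in each of 48 libraries, both on log axes; colour gives the treatment and symbol the table. Tsc22d3 is highest, at 65.2 FPKM, in the library with the highest marker sum, 630.02, and Fkbp5 shows no such slope (r = 0.05 within groups).

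Among members, 5 relations within groups were tested over the same 48 libraries. Tsc22d3 and Zbtb16 varied together (r = 0.63, permutation p = 0.0004, adjusted p = 0.002; rho = 0.66, adjusted p = 0.00265), although 13.2% of all genes had at least as high an r with Tsc22d3. Fkbp5 and Zbtb16 had r = 0.48 (permutation p = 0.0162, adjusted p = 0.0405; rho = 0.47, adjusted p = 0.0819), and 1.61% of genes matched or exceeded that r with Fkbp5. Leaving out the 2 libraries farthest from the median gave r = 0.48 and an adjusted permutation p of 0.0813 for Fkbp5 and Zbtb16, so that call was lost; for Tsc22d3 and Zbtb16 they were 0.62 and 0.0036. Within the first table alone r was 0.71 for Tsc22d3 and Zbtb16 (adjusted permutation p = 0.117) and 0.26 for Fkbp5 and Zbtb16 (0.316). Within the second alone it was 0.60 (0.0757) and 0.67 (0.174). The pairs Fkbp5 and Tsc22d3 (r = 0.12), Nr3c1 and Nr3c2 (0.36) and Hsd11b1 and Hsd11b2 (-0.11) did not pass (adjusted permutation p = 0.498, 0.279 and 0.498).

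Other genes of the pathway were taken from 4 lists of 60 genes in all. Of 24 tested glucocorticoid response genes other than the members, none differed between treatments (1.74% of all genes did) and 13 cycled with the common curve (6 in vehicle, 5 in D-alanine), against 26.5% of all genes with that curve. Their median amplitude was 0.24, against 0.10 over all genes. Per1, a clock repressor that the receptor also induces, had an amplitude of 0.84 ± 0.09 with a peak at CT12.7 (adjusted p = 1.33e-09). Cdkn1a, which encodes the cell cycle inhibitor p21, reached 0.66 ± 0.06 at CT22.9 (adjusted p = 2.4e-10). Mt2, a metallothionein, reached 0.52 ± 0.07 at CT7.68 (adjusted p = 3.5e-07). Pck1, the rate-limiting enzyme of gluconeogenesis, had a treatment difference of -0.34 ± 0.10 that missed the threshold (adjusted p = 0.0629) and passed without D-alanine CT12, CT16 or CT20 replicate 1 or CT0 replicate 4 (0.0327 to 0.0499) and with a term for table and time (0.0485). Foxo1, a forkhead transcription factor, stood at 0.09 ± 0.03 (adjusted p = 0.150) and passed with TPM (0.0164).

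Of the 12 chaperone complex genes, which fold and hold the receptor, 9 cycled with the common curve (26.5% of all genes did), with a median amplitude of 0.22, and 1 differed between treatments (1.74% of all genes did). Hsp90aa1, an inducible HSP90, had an amplitude of 0.52 ± 0.07 (peak CT21.6, adjusted p = 1.74e-07). Stip1, the HOP cochaperone, had 0.36 ± 0.04 (CT20.6, adjusted p = 1.22e-07). Fkbp4, the cochaperone FKBP52 that counters FKBP51, had 0.23 ± 0.03 (CT20.9, adjusted p = 2.69e-07), beside CT17.2 for Fkbp5; the gap was not tested. Fkbp4 had a treatment difference of 0.12 ± 0.04 (adjusted p = 0.0834), which passed without vehicle CT12 replicate 1 (0.0484) and with TPM (0.00784). Dnajb1, an HSP40 cochaperone, was higher in D-alanine by 0.25 ± 0.06 (adjusted p = 0.0207), with 9.72 ± 2.41 FPKM under vehicle and 12.2 ± 4.89 under D-alanine (SD, n = 24). That call was lost with quantile normalization (0.18, adjusted p = 0.267), with median centring (0.18, 0.221), without mitochondrial genes in the scaling (0.21, 0.118), without the table term (0.183) and in each table alone (0.620 and 0.134).

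Of 12 receptor coregulators, 4 cycled, a share near the 26.5% of all genes, and 0 differed between treatments (1.74% of all genes did); their median amplitude, 0.09, was close to the 0.10 of all genes. Smarca4, a chromatin remodelling ATPase, had 0.17 ± 0.03 (CT22.0, adjusted p = 0.000208), and Ncor1, a corepressor, had 0.16 ± 0.03 (CT21.4, adjusted p = 0.000482), a call lost in the first table alone (adjusted p = 0.105). Treatment differences were 0.11 ± 0.05 for the coactivator Ncoa3 (adjusted p = 0.214, and 0.0406 with TPM) and 0.09 ± 0.04 for Ncor1 (adjusted p = 0.230). Of 11 genes of steroid metabolism and transport 7 were measured above the filter, 1 cycled and 0 differed between treatments, against the same 26.5% and 1.74% of all genes. Srd5a1, a steroid 5 alpha-reductase, was the one that cycled (0.27 ± 0.05, CT9.12, adjusted p = 0.000852), a call lost in the second table alone (adjusted p = 0.107). Srd5a3 (0.07 ± 0.03, adjusted p = 0.184) and Akr1c18 (0.30 ± 0.14, adjusted p = 0.226) did not pass. The treatment difference was 0.15 ± 0.07 for H6pd (adjusted p = 0.246), whose product supplies the cofactor of the Hsd11b1 enzyme, and 0.14 ± 0.05 for Srd5a3 (adjusted p = 0.0821, 0.0418 without vehicle CT12 replicate 1 and 0.0119 with TPM).

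Likeness of pattern was measured as Pearson's r over the 12 group means, after removing the table effect, against 11881 named genes. Tsc22d3 was most like Wnk4 (r = 0.93), a kinase that controls salt transport in the distal convoluted tubule, then Naa60 (0.93) and Gda (0.93), with 79 genes at 0.8 or above. Fkbp5 was most like Slc16a14 (0.87), Sec11a (0.87) and Prr5 (0.86), with 10 genes at 0.8 or above. Zbtb16 was most like Zhx3 (0.90), Rpusd2 (0.88) and U2af1 (0.88). Hsd11b2 was most like Kcne1 (0.88), Scnn1g (0.85), an epithelial sodium channel subunit, and Rpl28 (0.82), with 6 genes at 0.8 or above. Hsd11b1 was most like Entpd1 (0.89), Gde1 (0.85) and Pltp (0.83). Nr3c1 had the least particular pattern: 1533 genes reached 0.8, among them Cdc73 (0.97) and Mtpn (0.97). Nr3c2 was most like Hist1h2ac (0.86), Ska2 (0.85) and Tmem50b (0.84). Between members the highest r were 0.71 for Tsc22d3 and Zbtb16, 0.68 for Fkbp5 and Zbtb16, 0.65 for Nr3c1 and Nr3c2 and 0.62 for Tsc22d3 and Fkbp5, and the lowest was -0.61 for Nr3c1 and Hsd11b2. These points share libraries and scaling and carry no test.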

How the data were processed

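Mouse kidney RNA, extracted with an RNeasy kit, was sequenced in 48 libraries made with a SMARTER kit, per the labels' protocols. The authors deposited FPKM values for 49585 genes in 2 tables; the submitters' processing notes name GRCm38 and mm10. The aligner, counter and strand setting were not given in the sources used here. Library depth was recovered from the FPKM steps of low genes with exon lengths of GENCODE M21, where 99.8% to 100.0% of low values in single-transcript genes were whole within 0.05. Replicates were compared first: each pair differed beyond sampling noise (chi-square per gene of at least 5.02). Numbers of replicates follow sample order and pair nothing.

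The 14922 genes that reached 1 FPKM in 4 or more libraries entered limma 3.58.1 (R 4.3.3) as log2(FPKM + 1), with a trend and the table as an additive term. D-alanine was compared with vehicle over all times, at single times, and for interactions with time and table. Rhythms were 24 h cosine and sine terms, tested by F tests per treatment, jointly, between treatments and between tables. P-values are two-sided and Benjamini-Hochberg adjusted over all genes. The log2 scale understates changes of low genes. Relations across libraries were tested by swapping the 2 libraries of a group within a table (100000 permutations, or all of them within a table) in Python 3.11.15 with NumPy 2.4.6. The tests were run on simulated data in which the noise was independent between genes. Shifts that many genes of a library share were thus not covered by that check.

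The members, the gene lists and the tests were chosen with earlier results of these data known. Named genes are all members, up to 3 others per list with the smallest p for the common rhythm, the 2 with the smallest p for treatment, and the 3 most alike in pattern. A few of these genes are not reported here. Alternatives were a pseudocount of 0.1, no filter, TPM, quantile normalization, median centring, scaling without mitochondrial genes, each table alone, no term for the table, a term for table and time, times as levels, robust moderation, limma voom on recovered fragments and leaving out each library. An inner medulla covariate and its relations to the members were added after seeing the data.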

Additional observations from a re-analysis of the deposited data

Results flagged for a closer look

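In 8 of 84 groups of 4 libraries, 1 library stood apart from the other 3, by more of the group's range than Dixon's 95% limit; chance alone gives about 1 in 20 such groups. Tsc22d3 had 4 of them: vehicle CT0 replicate 1 at 16.7 FPKM (others 6.90 to 7.40), vehicle CT4 replicate 1 at 8.00 (4.84 to 5.21), vehicle CT12 replicate 1 at 25.2 (14.2 to 14.7) and D-alanine CT0 replicate 2 at 65.2 (8.32 to 14.7). Hsd11b2 stood at 189 FPKM in vehicle CT0 replicate 2. Fkbp5 stood at 24.8 FPKM in D-alanine CT20 replicate 4 (next 14.7). On the low side, Nr3c2 stood at 1.64 FPKM in D-alanine CT8 replicate 2 and Zbtb16 at 0.357 in D-alanine CT16 replicate 4 (others 0.681 to 0.695). The fitted rhythm of Hsd11b2 differed between the tables (limma, adjusted p = 0.0397). The differences in its cosine and sine terms had a combined length of 0.49 log2 units. The amplitudes were close, at 0.23 in the first table and 0.27 in the second, while the peaks lay at CT1.86 and CT15.0.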

How the results depend on the processing

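No paired analysis was possible because the replicate numbers follow sample order and carry no label of their own. For each value below that changed, the cause was not tested. The calls of Tsc22d3 and Fkbp5 with the common curve held without any 1 of the 48 libraries. Members called with the common curve numbered 2 (1 in the first table alone, 4 with times as levels). They numbered 3 with a pseudocount of 0.1, median centring, the second table alone or the inner medulla covariate. In D-alanine 2 were called (1 without a table term, 0 in the first table, 4 with times as levels, 3 with the covariate). In vehicle 1 was called (0 in the first table). Calls over all genes moved as well. With the common curve 3947 became 1831 in the first table, 3090 in the second, 3053 with times as levels and 5232 with the covariate. In D-alanine 1238 became 494 without a table term, 233 in the first table, 1448 with times as levels and 3013 with the covariate. In vehicle 1458 became 266 in the first table. The 1 member with a rhythm that differed between tables became 0 with no filter, quantile normalization, median centring or no mitochondrial genes. It ranged from 0 to 1 over single libraries left out. Over all genes the 215 calls in that test became 55, 169, 54 and 143 with those settings, in that order. For treatment, 0 members were called on average (2 with TPM; 0 to 1 over single libraries left out) and 0 at single times (2 with TPM; 0 to 2). Over all genes the 259 calls became 2668 with TPM, 145 with no filter, 14 with quantile normalization, 23 with median centring, 21 without mitochondrial genes, 17 without a table term, 0 in the first table and 14 in the second, and 93 to 631 over single libraries left out. Small differences changed sign: Nr3c2 was -0.054 with quantile normalization, -0.065 with centring, -0.025 without mitochondrial genes, -0.0089 in the first table, -0.0013 with voom and -0.019 with the inner medulla covariate, and -0.017 to 0.024 over single libraries left out. Hsd11b1 was -0.0026 with quantile normalization, -0.015 with centring and -0.00052 with the covariate (-0.0027 to 0.092 over single libraries left out). Fkbp5 was -0.067 with quantile normalization, -0.063 with centring, -0.034 without mitochondrial genes and -0.059 in the first table (-0.033 to 0.035 over single libraries left out). Ncoa3 was -0.0093 in the second table. Correlated pairs of members numbered 2, with 0 in either table alone and 1 with quantile normalization, without mitochondrial genes or without the 2 farthest libraries. Fkbp5 and Tsc22d3 had r = -0.056 in the first table and -0.028 with quantile normalization, and Hsd11b1 and Hsd11b2 0.24 in the second table. Zbtb16, at a median of 25 fragments, is the member most limited by depth.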
